A study of Mus musculus with 9 samples.

Results

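The 10 genes described here encode proteins that break down heme, move heme and iron across membranes, or build heme: Hmox1, Blvra, Blvrb, Slc48a1, Slc40a1, Slc11a1, Tfrc, Abcb6, Fech and Alas1. They were taken by name from the deposited tables, which list 24318 genes, and all 10 were present. They were measured in polyA-selected RNA-seq libraries from cultured mouse cells given brain-derived extracellular vesicles (BDEV), small membrane-bound particles shed by cells. There were 9 libraries, 3 in each of 3 groups. Vehicle libraries had no vesicles. CON-BDEV libraries had control vesicles, and their library names carry the word Saline. SE-BDEV libraries had vesicles tied by the series title to status epilepticus (prolonged seizure), and their library names carry the word Pilo. No dose, exposure time or genotype was given, and whether replicates were separate cultures was not stated either, so p-values measure the spread between these libraries only, which may be technical.

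The design text gives the cells as BV2, a mouse microglial line, but the cell line label of each library reads N2a, a mouse neuroblastoma line. All 11 listed microglia and macrophage markers found in the tables averaged at least 1 FPKM (fragments scaled to transcript length and to library depth), and their summed level was 2205 to 2244 FPKM in Vehicle, 2202 to 2327 in CON-BDEV and 2247 to 2389 in SE-BDEV. None of 12 neuroblastoma and neuron markers averaged 1 FPKM, and Th, Dbh and Mycn were at 0 in all 9 libraries, so the N2a label is not borne out by these markers. Markers of red blood cells, which make heme in bulk, were near 0: none of 11 averaged 1 FPKM, the globins Hba-a1, Hba-a2, Hbb-b1, Hbb-b2 and Hbb-bs were at 0 throughout, and the summed level was 0.525 to 0.801 FPKM in Vehicle, 0.692 to 0.754 in CON-BDEV and 0.797 to 1.03 in SE-BDEV. Of the astrocyte, oligodendrocyte and endothelial lists, 1 of 8, 2 of 8 and 1 of 8 markers averaged 1 FPKM. Their sums were 44.9 to 46.0, 13.9 to 14.1 and 35.3 to 40.4 FPKM in Vehicle, 37.5 to 41.1, 10.8 to 13.4 and 35.8 to 44.2 in CON-BDEV, and 36.4 to 40.3, 11.9 to 12.5 and 42.5 to 47.1 in SE-BDEV, and their part in the results was not tested. The files hold no read counts. From the steps between the lowest values, library depth was 0.877 (CON-BDEV replicate 2) to 1.02 (Vehicle replicate 2) times that of Vehicle replicate 1. This is an estimated 26700000 to 30900000 fragments. With each gene's longest annotated transcript, that puts an estimated 1255 fragments (Slc40a1) to 24561 fragments (Tfrc) behind each member's value in the library with the fewest. Fech and Alas1 also have shorter transcripts (2059 and 2129 nt against 6571 and 3399 nt), which would give them lower estimates.

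Heme is an iron-bearing ring that carries oxygen and electrons, and phagocytes take it in with the cells they engulf. HMOX1 opens the ring and frees iron, carbon monoxide and biliverdin, and the biliverdin reductases turn biliverdin into bilirubin. SLC48A1 moves heme out of the lysosome, SLC11A1 moves metal ions out of the phagosome, TFRC brings in transferrin-bound iron, and SLC40A1 (ferroportin) is the cell's iron exporter. ALAS1 starts heme synthesis, ABCB6 transports porphyrins, and FECH inserts iron in the final step. Several of these genes are textbook targets of the transcription factor NRF2 and of its competitor BACH1, which itself senses heme.

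With CON-BDEV 8 of the 10 genes rose and none fell, and with SE-BDEV 9 rose and none fell. By log2 fold change Hmox1, Slc48a1 and Blvrb came first with both preparations, and Blvra did not pass the test with either preparation. Values were tested with limma on log2(FPKM + 1) across 10535 genes, with a threshold of 0.05 on the Benjamini-Hochberg adjusted p. Over all genes tested, 3.81% were called higher and 1.86% lower with CON-BDEV, and 6.76% higher and 5.14% lower with SE-BDEV. The median log2 fold change of the 10 genes was 0.76 with CON-BDEV and 0.79 with SE-BDEV, against 0.01 and 0.00 over all genes tested. The 10 genes were chosen with earlier results of these data known, so these counts and medians describe them and do not test the set. Both comparisons share the 3 Vehicle libraries, so their values are given side by side and are not independent of each other. RNA from a whole culture cannot tell fewer cells of a type from less RNA per cell.

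**Figure D1:**
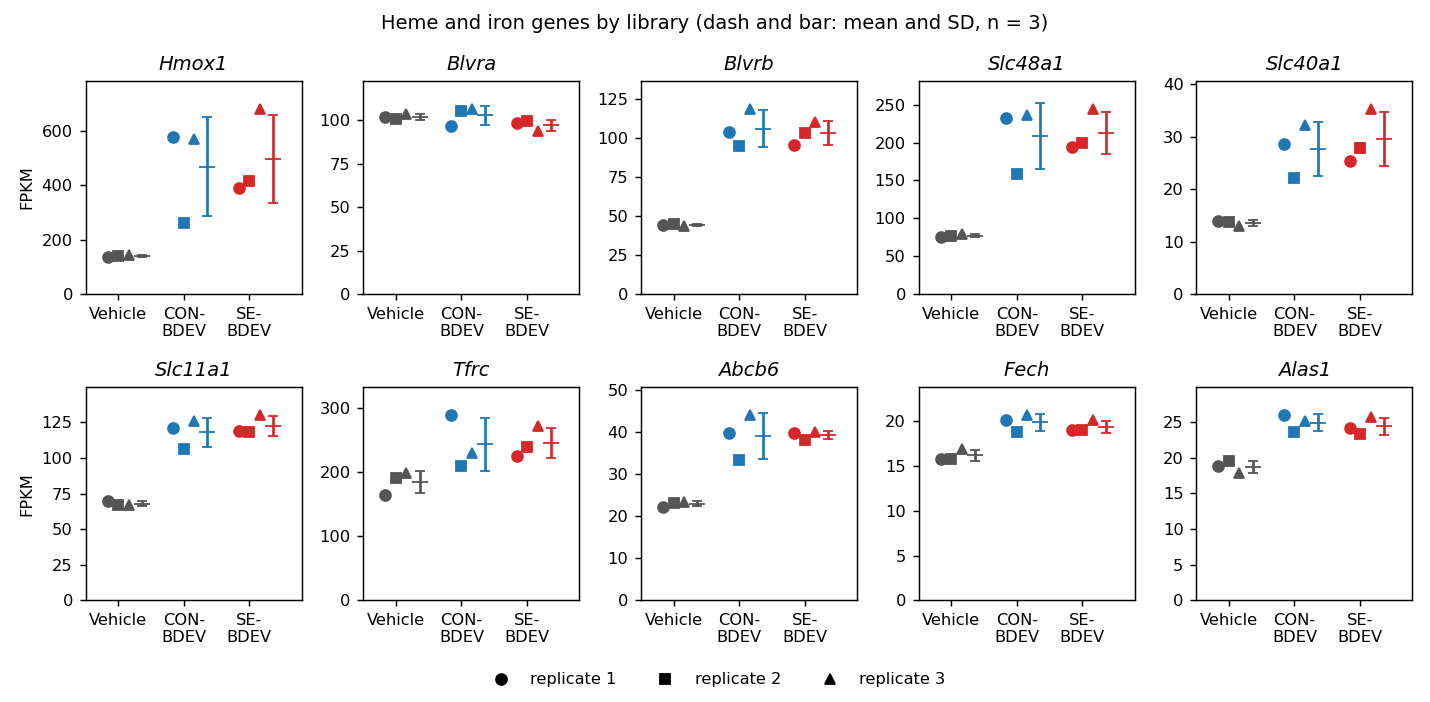
FPKM of each of the 10 genes (vertical axes, each from 0) in the 3 Vehicle, 3 CON-BDEV and 3 SE-BDEV libraries, with symbols for the replicates and the mean ± SD beside them. The vesicle libraries lie above all Vehicle libraries for 9 genes, and the Blvra libraries span 93.6 to 106 FPKM.

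Hmox1, the heme oxygenase that stress induces, was the member that moved most. Its level in the Vehicle libraries was 136, 141 and 143 FPKM. In CON-BDEV it was 578, 260 and 569 FPKM for replicates 1, 2 and 3, and in SE-BDEV 391, 417 and 681 FPKM. Every vesicle library was above every Vehicle library, but CON-BDEV replicate 2 stood well under the other two CON-BDEV libraries and SE-BDEV replicate 3 was the highest of all. The mean rose from 140 ± 3.36 FPKM to 469 ± 181 with CON-BDEV (3.35-fold) and to 497 ± 161 with SE-BDEV (3.54-fold; mean ± SD, n = 3). The log2 fold changes were 1.65 (95% confidence interval 1.07 to 2.22, limma adjusted p = 0.0114) and 1.77 (1.39 to 2.15, limma adjusted p = 0.000301). Ranked by log2 fold change, Hmox1 was number 6 of 10535 genes with CON-BDEV and number 4 with SE-BDEV. The CON-BDEV call missed the threshold when Vehicle replicate 2 (limma adjusted p = 0.0507), Vehicle replicate 3 (0.0526) or CON-BDEV replicate 3 (0.0521) was left out and with no filter on low values (0.0687), while the log2 fold change was 1.46 to 1.66 in these fits. Without CON-BDEV replicate 2 it was 2.02. Hmox1 lies on chromosome 8 from 77617517 to 77624492 (mm9).

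Of the 2 biliverdin reductases, Blvrb passed the test with both preparations and Blvra with neither. Blvrb, which also reduces flavins, was at 44.2, 45.2 and 43.8 FPKM in Vehicle, at 104, 95.1 and 119 FPKM in CON-BDEV and at 95.5, 103 and 111 FPKM in SE-BDEV. The groups were far apart, and the lowest vesicle library was over 2 times the highest Vehicle library. The log2 fold changes were 1.23 (1.07 to 1.39) and 1.20 (1.08 to 1.31), with limma adjusted p = 0.000186 and 2.12e-06. Blvra, the main biliverdin reductase of adult tissue, was at 102, 101 and 104 FPKM in Vehicle, 96.6, 105 and 106 FPKM in CON-BDEV and 98.2, 99.4 and 93.6 FPKM in SE-BDEV. Its CON-BDEV libraries lay on both sides of Vehicle, while its SE-BDEV libraries were all slightly lower. The log2 differences for Blvra were 0.01 (-0.09 to 0.11, limma adjusted p = 0.920) and -0.07 (-0.15 to 0.01, limma adjusted p = 0.249). FPKM is a level per length, so the genes can be set side by side: Blvra was above Blvrb in each Vehicle library, and their ranges overlapped in both vesicle groups. The difference in response between the 2 genes was not tested. In mm9 Blvrb lies on chromosome 7 from 28232997 to 28251000 and Blvra on chromosome 2 from 126896393 to 126922820.

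A promoter search covered 6 of the 10 genes, and of these only Blvra matched the core of the antioxidant response element. This is the DNA motif that NRF2 and BACH1 bind with small MAF proteins. The letters TGACNNNGC were searched on both strands of RefSeq promoter windows (GRCm38.p6, 250 bases before to 50 after a gene's start). Windows were matched for 6 of the 10 genes (Blvra, Blvrb, Slc11a1, Abcb6, Alas1 and Tfrc), so Hmox1, Slc48a1, Slc40a1 and Fech were not searched. The motif was in 1 of the 9 windows of these 6 genes and in 12.4% of all 32851 windows. The match began 49 bases before the Blvra start, and the stretch chr2:127070582-127070641 (plus strand, GRCm38.p6) is shown because the member it belongs to did not pass the test. The capitals mark the match, which reads as the motif on the minus strand.
Blvra promoter: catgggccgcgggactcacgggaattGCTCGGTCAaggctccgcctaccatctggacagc
The 8 windows of the other 5 genes held no match, 5 genes of which 4 rose with both preparations. A match is a run of letters and not a shown binding site, and sites outside these windows were not searched.

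The heme transporter gene Slc48a1 followed Hmox1 in size. Its level was 75.3, 77.2 and 79.5 FPKM in Vehicle, 232, 158 and 236 FPKM in CON-BDEV and 194, 200 and 244 FPKM in SE-BDEV. All vesicle libraries were higher, and CON-BDEV replicate 2 was again the lowest of them. The means were 2.70 times (209 ± 43.9 FPKM) and 2.75 times (213 ± 27.6 FPKM) that of Vehicle (77.3 ± 2.08 FPKM). The log2 fold changes were 1.4 (1.10 to 1.69) and 1.44 (1.27 to 1.61), with limma adjusted p = 0.00164 and 6.61e-06. In the authors' deposited table the locus of Slc48a1, chromosome 15 from 97614796 to 97674933 (mm9), is the same as that listed for Hdac7, so the split of reads between these 2 genes is uncertain.

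Slc40a1, the iron exporter, was the member with the lowest level in Vehicle. It was at 14.0, 13.7 and 13.0 FPKM in Vehicle, 28.6, 22.0 and 32.2 FPKM in CON-BDEV and 25.4, 27.8 and 35.3 FPKM in SE-BDEV. No vesicle library reached down to the Vehicle range. The log2 fold changes were 0.96 (0.70 to 1.22) and 1.06 (0.83 to 1.28), with limma adjusted p = 0.00426 and 0.000286. Slc11a1, the phagosomal metal transporter, was at 69.9, 66.8 and 67.0 FPKM in Vehicle, 121, 106 and 126 FPKM in CON-BDEV and 119, 118 and 130 FPKM in SE-BDEV. Its groups were likewise separate, with log2 fold changes of 0.78 (0.64 to 0.92) and 0.84 (0.74 to 0.94) and limma adjusted p = 0.000909 and 6.76e-06. Both genes are on chromosome 1 (mm9), Slc40a1 from 45964915 to 45982439 and Slc11a1 from 74421777 to 74432625.

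Tfrc, the transferrin receptor, had the highest level of the 10 genes in Vehicle and one of the smaller changes. It was at 165, 191 and 199 FPKM in Vehicle, 290, 211 and 231 FPKM in CON-BDEV and 226, 240 and 272 FPKM in SE-BDEV. The groups did not overlap, but Vehicle and CON-BDEV came close, at 199 and 211 FPKM. The log2 difference was 0.39 (0.14 to 0.64) with CON-BDEV, which missed the threshold (limma adjusted p = 0.0770), and 0.41 (0.23 to 0.59) with SE-BDEV, which passed (limma adjusted p = 0.0132). Without CON-BDEV replicate 2 the CON-BDEV value was 0.49 and passed (limma adjusted p = 0.0302), and with no filter on low values the SE-BDEV value missed (0.0665). Tfrc lies on chromosome 16 from 32608982 to 32632880 (mm9). The groups not overlapping, with the vesicles higher, held for 9 of the 10 genes in each comparison, against 16.6% of all genes with CON-BDEV and 16.5% with SE-BDEV.

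Tfrc and Slc40a1 are the members whose transcripts carry iron-responsive elements, hairpins bound by iron regulatory proteins when iron is scarce. Such a hairpin stabilises the transcript when it lies in the 3′ UTR and blocks translation when it lies in the 5′ UTR. A search of GENCODE M21 transcripts (GRCm38) on the transcript strand for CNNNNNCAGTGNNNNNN, with all 5 base pairs of the stem formed (G-T pairs allowed), found 4 sites in Tfrc and 1 in Slc40a1. For the members, Fth1 and Ftl1, the search took the lowest-numbered protein-coding transcript of each gene. The other 8 members had none there. Over all genes, a site in any protein-coding transcript counted, and 294 of 21877 genes with such a transcript (1.34%) had at least 1. That share was thus not counted in the same way as the members. The sites are shown with their flanks because they differ in where they lie, and the ferritin genes Fth1 and Ftl1 are set beside them. Capitals mark the loop, CAGTGN.
Tfrc, 3′ UTR, chr16:32631219-32631247, plus strand: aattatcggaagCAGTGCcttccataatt
Tfrc, 3′ UTR, chr16:32631598-32631626, plus strand: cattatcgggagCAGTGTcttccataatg
Tfrc, 3′ UTR, chr16:32631663-32631691, plus strand: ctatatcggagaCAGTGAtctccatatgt
Tfrc, 3′ UTR, chr16:32631710-32631738, plus strand: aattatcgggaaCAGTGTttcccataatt
Slc40a1, 5′ UTR, chr1:45925465-45925493, minus strand: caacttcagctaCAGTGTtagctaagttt
Fth1, 5′ UTR, chr19:9982732-9982760, plus strand: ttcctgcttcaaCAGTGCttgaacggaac
Ftl1, 5′ UTR, chr7:45459779-45459807, minus strand: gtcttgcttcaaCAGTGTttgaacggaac
The RNA level of the gene with 3′ UTR sites (Tfrc) and that of the gene with a 5′ UTR site (Slc40a1) were both higher with vesicles, by 1.32-fold and 2.04-fold with CON-BDEV and by 1.33-fold and 2.18-fold with SE-BDEV. Of these 4 differences, that of Tfrc with CON-BDEV missed the threshold (limma adjusted p = 0.0770). Protein levels and iron were not measured in these files.

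The 3 genes of heme synthesis and porphyrin transport rose with both preparations. Abcb6, the porphyrin transporter, was at 22.2, 23.1 and 23.4 FPKM in Vehicle, 39.7, 33.3 and 44.0 FPKM in CON-BDEV and 39.6, 38.0 and 40.0 FPKM in SE-BDEV. It was clearly separated in both comparisons, with log2 fold changes of 0.73 (0.54 to 0.93, limma adjusted p = 0.00426) and 0.75 (0.66 to 0.84, limma adjusted p = 6.76e-06). Alas1, the enzyme that limits the pathway, was at 18.9, 19.5 and 17.9 FPKM in Vehicle, 25.98, 23.57 and 25.18 FPKM in CON-BDEV and 24.2, 23.3 and 25.7 FPKM in SE-BDEV. Its log2 fold changes were 0.39 (0.27 to 0.51, limma adjusted p = 0.00760) and 0.36 (0.25 to 0.48, limma adjusted p = 0.00259). Fech, the last enzyme, was at 15.8, 15.8 and 16.9 FPKM in Vehicle, 20.1, 18.8 and 20.7 FPKM in CON-BDEV and 19.0, 19.0 and 20.1 FPKM in SE-BDEV. This was the smallest called change, with log2 fold changes of 0.28 (0.16 to 0.40, limma adjusted p = 0.0214) and 0.25 (0.14 to 0.35, limma adjusted p = 0.0105). The CON-BDEV call for Fech was lost in 6 of 11 alternatives, with limma adjusted p = 0.104, 0.106 and 0.0589 when Vehicle replicates 1, 2 and 3 were left out in turn and 0.0808 when CON-BDEV replicate 3 was. The SE-BDEV call was lost in 1, without Vehicle replicate 1 (0.0526). In mm9 Abcb6 lies on chromosome 1 from 75168215 to 75176857 and Alas1 on chromosome 9 from 106135786 to 106150285.

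In the tables that the authors deposited, 9 of the 10 genes had a q under 0.05 and were higher with CON-BDEV, and 8 with SE-BDEV. Of all genes the authors tested, 2.76% and 3.36% met that rule. The authors' q for Tfrc with CON-BDEV was 0.00245, where limma missed the threshold, and for Fech with SE-BDEV it was 0.0651, where limma passed. For Blvra it was 0.987 and 0.831. The authors' log2 fold changes, with no added FPKM, were 1.74 and 1.82 for Hmox1, 1.43 and 1.46 for Slc48a1, and 1.03 and 1.12 for Slc40a1.

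The order of the levels changed between the groups. In Vehicle it ran from Tfrc (185 FPKM) through Hmox1 (140), Blvra (102), Slc48a1 (77.3), Slc11a1 (67.9), Blvrb (44.4), Abcb6 (22.9), Alas1 (18.7) and Fech (16.2) to Slc40a1 (13.6), and the libraries of no 2 neighbours overlapped. With CON-BDEV Hmox1 came first (469 FPKM), ahead of Tfrc (244) and Slc48a1 (209), and these neighbours overlapped. With SE-BDEV Hmox1 (496 FPKM after the tables were joined) was above Tfrc (246) in every library, while Tfrc and Slc48a1 (213) overlapped. Slc40a1 left the last place in both, and its libraries overlapped those of Alas1.

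SE-BDEV against CON-BDEV asked whether vesicles linked to status epilepticus acted differently on these genes, and no member passed the test. In a fit of all 9 libraries, 0.0% of 10532 genes were called in either direction, with 509 at an unadjusted p under 0.05. The fit pooled the spread of all 3 groups, Vehicle included. For Hmox1 the SD was 3.36 FPKM in Vehicle, 181 in CON-BDEV and 161 in SE-BDEV. Intervals may thus be too narrow for genes that varied more with vesicles. The log2 difference was 0.12 for Hmox1, with a 95% confidence interval of -0.48 to 0.73, the widest interval of the 10. It was 0.04 (-0.25 to 0.34) for Slc48a1, 0.09 (-0.19 to 0.38) for Slc40a1 and 0.02 (-0.23 to 0.26) for Tfrc. The intervals were narrower for Blvrb (-0.04, -0.20 to 0.13), Slc11a1 (0.06, -0.08 to 0.19), Abcb6 (0.02, -0.16 to 0.19), Alas1 (-0.03, -0.15 to 0.09), Fech (-0.03, -0.15 to 0.08) and Blvra (-0.08, -0.18 to 0.02). The limma adjusted p was 0.999 for each of the 10. The groups overlapped for every member, which does not show that the preparations act alike.

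**Figure D2:**
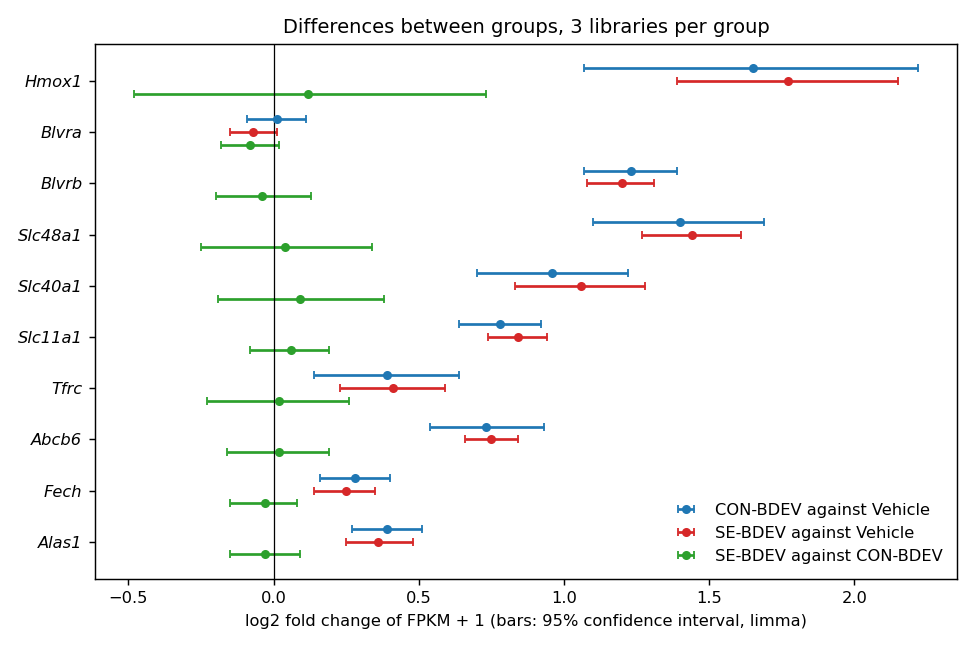
Log2 fold change of FPKM + 1 (horizontal axis) for each gene in the 3 comparisons, with 95% confidence intervals from limma. Both vesicle groups lie to the right of 0 for 9 genes, and the intervals of SE-BDEV against CON-BDEV include 0 for all 10.

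Libraries within a group differed more after vesicles than without. The SD of Hmox1 was 3.36 FPKM in Vehicle, 181 in CON-BDEV and 161 in SE-BDEV. That of Tfrc was 17.9, 41.1 and 23.8 FPKM, and that of Fech 0.642, 0.972 and 0.651 FPKM. Among the 8 genes that rose with both preparations, CON-BDEV replicate 2 was the lowest of the 6 vesicle libraries in 7, and SE-BDEV replicate 2 was the lowest for Alas1. The highest was SE-BDEV replicate 3 in 4 of the 8, CON-BDEV replicate 3 in 3 and CON-BDEV replicate 1 in 1. Of all 313 genes that rose with both preparations, CON-BDEV replicate 2 was the lowest in 49.5% and SE-BDEV replicate 3 the highest in 18.5%, and of all 10532 genes in 22.8% and 13.8%. CON-BDEV replicate 3 was the highest in 43.8% of the 313 genes and CON-BDEV replicate 1 in 13.4%. Of all 10532 genes they were the highest in 19.8% and 19.9%. CON-BDEV replicate 2 also had the lowest estimated depth, and the part of depth in this order was not tested.

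**Figure D3:**
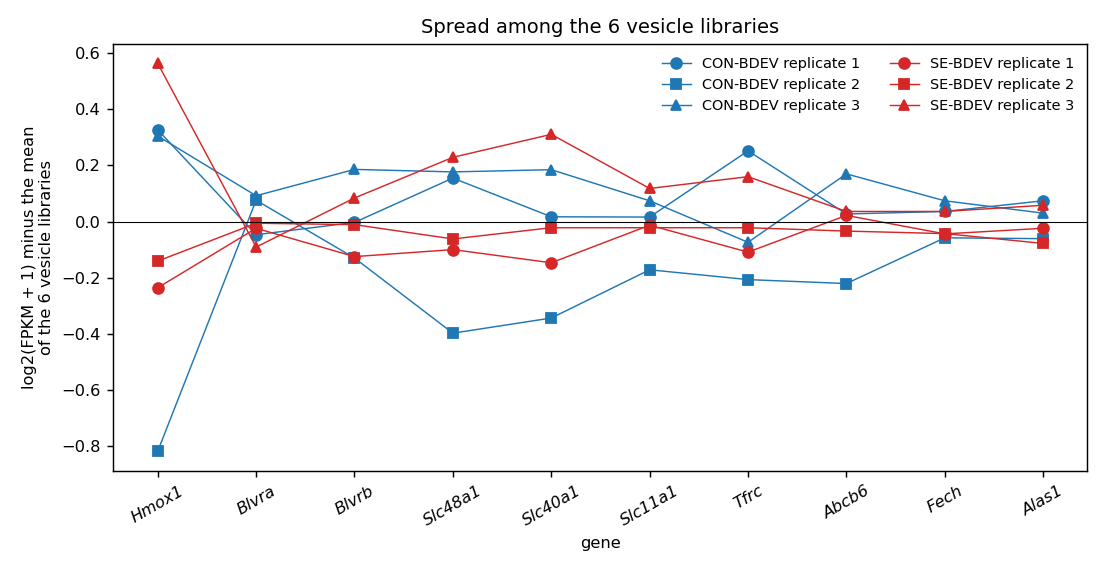
For each gene, log2(FPKM + 1) in each of the 6 vesicle libraries minus the mean of the 6 (vertical axis), with lines joining the genes of a library for reading only. CON-BDEV replicate 2 lies lowest for 7 of the 8 genes that rose with both preparations and for Tfrc, but not for Blvra.

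Genes whose pattern over the 9 libraries was most like that of a member were found by Pearson's r of log2(FPKM + 1), as a description. The step from Vehicle to the vesicle libraries sets much of each r, and all genes share the libraries and their depth. For Hmox1 they were Rnf128 (r = 0.997), Pgd (0.995), Srxn1 (0.994), Gsr (0.990) and Cyb5a (0.990). After the group means were removed, r was 0.98, 0.97, 0.98, 0.97 and 0.96. The genes were picked by r over these same 9 libraries, so such values are not a separate check. Blvrb was closest to Esd (0.999), Ptgr1 (0.995), Gbe1 (0.994), Prdx1 (0.992) and to another member, Slc11a1 (0.992), with 0.98, 0.96, 0.87, 0.81 and 0.85 after the group means were removed. Slc48a1 was closest to Nqo1 (0.999), G6pdx (0.998), Cat (0.998), Gclm (0.997) and Gclc (0.996), with 0.98, 0.97, 0.98, 0.96 and 0.97. Mean levels in Vehicle, CON-BDEV and SE-BDEV were 42.0, 78.0 and 79.1 FPKM for Srxn1 and 105, 212 and 213 FPKM for Esd.

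Beyond the 10 genes, 71 others of heme and iron handling were listed in 6 groups by role, of which 68 were in the tables. Of those tested, 7 of 50 rose and none fell with CON-BDEV, and 7 of 51 rose and 2 fell with SE-BDEV, with median log2 fold changes of 0.03 and 0.00. These changes were small, none above 0.30 on the log2 scale, and only the SE-BDEV calls of Bach1 and Mafg held in all 11 alternatives. Among these called genes the authors' q was under 0.05 only for Bach1 with both preparations and for Mafg with SE-BDEV. It was 0.703 for Hmox2 and 0.594 for Trf with SE-BDEV. When Vehicle replicate 1, Vehicle replicate 2 or CON-BDEV replicate 3 was left out, 0 of the 50 passed with CON-BDEV, and 1 passed when Vehicle replicate 3 was. With SE-BDEV 3, 2 and 3 of the 51 passed when Vehicle replicates 1, 2 and 3 were left out in turn, and 4 and 5 when SE-BDEV replicates 2 and 3 were.

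**Figure D4:**
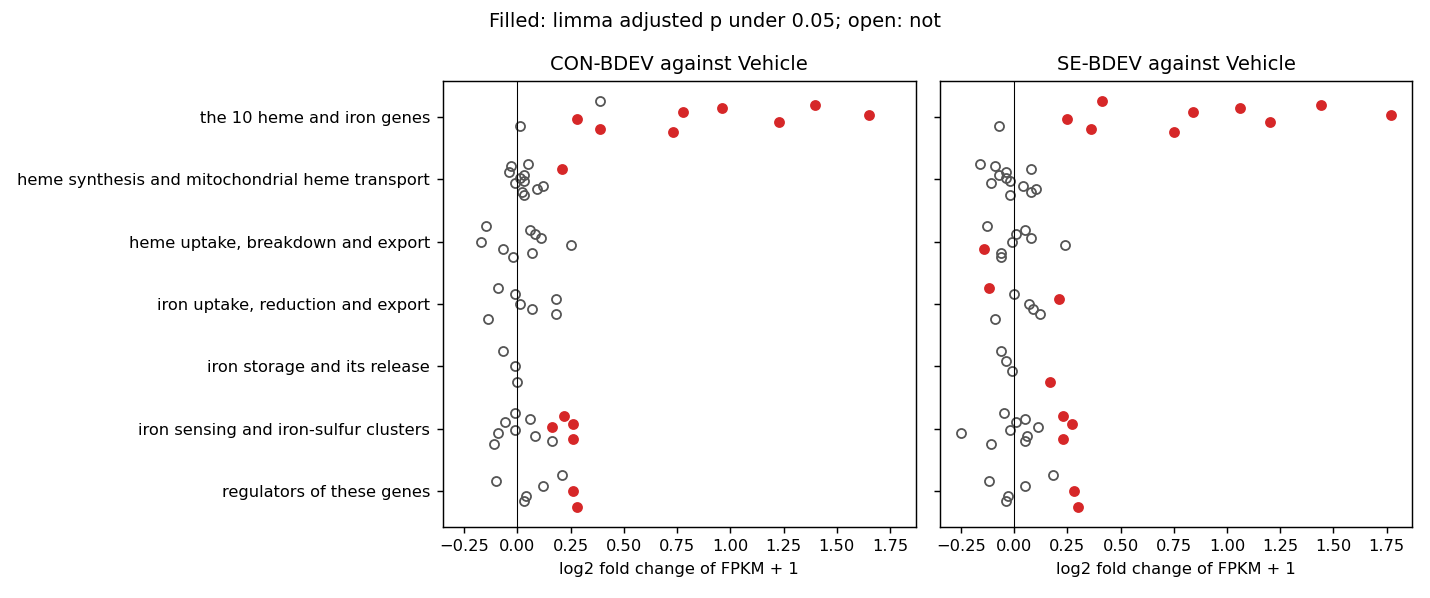
Log2 fold change of FPKM + 1 (horizontal axes) with CON-BDEV and with SE-BDEV for the 10 genes and for the tested genes of the 6 other lists, 1 point a gene. Filled points passed limma's threshold, and outside the 10 genes none of them exceeds 0.30.

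Among the other genes of heme synthesis and mitochondrial heme transport, 1 of 12 rose with CON-BDEV and none with SE-BDEV. The gene was Tmem14c, which carries a heme precursor into mitochondria, with a mean of 135 ± 2.47 FPKM in Vehicle and 156 ± 8.42 FPKM in CON-BDEV (log2 fold change 0.21, limma adjusted p = 0.0355). Slc25a39, a mitochondrial carrier, was at 190, 184 and 184 FPKM in Vehicle, CON-BDEV and SE-BDEV. Alas2, the red cell counterpart of Alas1, averaged 0.0113, 0.0506 and 0.0869 FPKM. Heme uptake, breakdown and export had 9 tested genes. None passed with CON-BDEV, where Por, the reductase that feeds electrons to heme oxygenase, had a log2 difference of 0.06 (limma adjusted p = 0.442), and Hmox2 alone fell with SE-BDEV. Hmox2, the heme oxygenase that is always present, was at 58.6 ± 0.790 FPKM in Vehicle and 53.0 ± 1.95 FPKM in SE-BDEV, a log2 fold change of -0.14 (limma adjusted p = 0.0460). In CON-BDEV it was at 55.8 FPKM (-0.07, limma adjusted p = 0.305). The authors' deposited table lists Cdip1 at the same locus as Hmox2, so the split of reads between them is uncertain. Cd163, the receptor for hemoglobin bound to haptoglobin, was listed at 0 in all 9 libraries.

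Of 7 genes of iron uptake, reduction and export, none passed with CON-BDEV, and Slc39a14 rose and Trf fell with SE-BDEV. Slc39a14, an importer of iron not bound to transferrin, went from 11.1 ± 0.104 to 13.0 ± 0.331 FPKM (log2 fold change 0.21, limma adjusted p = 0.0148). Trf, which encodes transferrin, went from 237 ± 1.62 to 218 ± 3.52 FPKM (-0.12, limma adjusted p = 0.0436), and was at 222 ± 5.76 FPKM in CON-BDEV (-0.09, limma adjusted p = 0.174). Among 12 genes of iron sensing and iron-sulfur clusters 4 rose with CON-BDEV and 3 with SE-BDEV. Hfe, which binds the transferrin receptor, rose by 0.26 and 0.27 on the log2 scale, Cisd2 by 0.26 and 0.23, and Lyrm4 by 0.22 and 0.23, both of the latter encoding proteins of iron-sulfur clusters. Glrx5, another such gene, rose by 0.16 with CON-BDEV and had 0.11 with SE-BDEV (limma adjusted p = 0.0497 and 0.141). Aco1 and Ireb2, the iron regulatory proteins, had log2 differences of -0.11 and -0.06 with CON-BDEV and of -0.11 and 0.01 with SE-BDEV, none past the threshold.

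Ferritin, the protein shell that stores iron, was only partly measurable. Fth1, the heavy chain, was at 14540, 13510 and 13080 FPKM in the Vehicle libraries and is listed at 0 in all 6 vesicle libraries with Cuffdiff's status for too many fragments, so it was left out of all comparisons. Ftl1, the light chain, is listed at 0 with that status in CON-BDEV alone. It was at 12600, 12370 and 12070 FPKM in Vehicle and at 13320, 14160 and 14350 FPKM in SE-BDEV, where all 3 libraries were higher. The log2 fold change was 0.17 (0.08 to 0.27, limma adjusted p = 0.0337), but the call held in 3 of 11 alternatives only, and the authors' q was 0.330. The other tested genes of iron storage, Ncoa4, Pcbp1 and Pcbp2, did not pass, and Pcbp2, an iron chaperone, had log2 differences of -0.07 and -0.06, with a locus that the authors' deposited table also lists for Map3k12, so its reads are uncertain in the same way.

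Of 7 regulators tested, Bach1 and Mafg rose with both preparations. Bach1, the heme-sensing repressor of Hmox1, was at 13.1 ± 0.275 FPKM in Vehicle, 16.1 ± 1.20 in CON-BDEV and 16.4 ± 0.729 in SE-BDEV, and Mafg, a small MAF partner, at 37.8 ± 0.395, 45.6 ± 2.07 and 46.2 ± 0.883 FPKM. The log2 fold changes were 0.28 and 0.30 for Bach1 (limma adjusted p = 0.0295 and 0.00445) and 0.26 and 0.28 for Mafg (limma adjusted p = 0.0159 and 0.00153). Nfe2l2, which encodes NRF2, was at 98.3, 91.5 and 90.8 FPKM and did not pass (limma adjusted p = 0.176 and 0.240). Between the preparations none of the 50 tested genes outside the 10 passed limma's test. The lowest unadjusted p among them was that of Lrp1, a receptor that takes up heme bound to hemopexin, with 65.5 ± 3.06 FPKM in CON-BDEV and 73.2 ± 3.71 in SE-BDEV (log2 difference 0.16, limma adjusted p = 0.991), a gene named after its values were seen.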

How the data were processed

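The submitters' processing notes name TopHat2, Cuffdiff and build mm9; versions and annotation are not given in the sources used here. The authors deposited FPKM tables of each vesicle group with Vehicle. Their deposited Cuffdiff output holds, per the file headers, group means, log2 fold changes, a test score, p-values and q-values.

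Columns were matched to libraries by the library names in the labels. The Vehicle libraries differ between tables by constant factors (1.00012 to 1.00078), so SE-BDEV was divided by 1.00044 to join them. Genes that Cuffdiff marked as having too many fragments were left out. FPKM are not counts, so log2(FPKM + 1) of genes averaging at least 1 FPKM was fitted with limma 3.58.1 (R 4.3.3; eBayes with trend, 2-sided, Benjamini-Hochberg over all genes): each vesicle group against Vehicle in its own table, and SE-BDEV against CON-BDEV in all 9 libraries. The code was tested on simulated data. With 3 libraries against 3, an exact permutation test cannot give a p below 0.1. Depth came from 312 genes with values under 0.05 FPKM and, for fragments, 22 of them with 1 transcript of at least 2000 nt. Every member was named. Of each list, up to 4 called genes were named by size of change, and with none called the gene with the highest mean. The 5 genes most like Hmox1, Blvrb and Slc48a1 were named, passing over predicted and multi-gene entries. Alas2, Cd163, Aco1 and Ireb2 were chosen after their values were seen. Nfe2l2, Fth1, Ncoa4, Pcbp1 and Lrp1 were also named outside the rule for lists. The members and lists were chosen with earlier results of these data known. Alternatives changed the pseudocount, filter, scaling, blocks and libraries.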

Additional observations from a re-analysis of the deposited data

How the results depend on the processing

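The count of the 10 genes past limma's threshold was 8 with CON-BDEV, 6 to 9 with 1 library left out, and 9 with SE-BDEV, 8 to 9 with 1 left out. With no filter on low values it was 6 and 8, and with the replicate block 8 and 9. Blvrb, Slc48a1, Slc40a1, Slc11a1, Abcb6 and Alas1 passed in all 11 alternatives of both comparisons, and Hmox1 in all 11 with SE-BDEV. Over all members and alternatives 10 of 110 CON-BDEV and 2 of 110 SE-BDEV values lost their call, 1 CON-BDEV value gained one, and no called value changed sign. The 110 include the values of Blvra and, with CON-BDEV, of Tfrc, which had no call to lose. Between the preparations 0 of 150 passed.

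The other pathway genes were less stable. With CON-BDEV 7 passed, but 0 with no filter, 3 with the replicate block, 1 with a block for the number in the library name, and 0 to 8 with 1 library left out. With SE-BDEV 9 passed, but 5 with no filter and 2 to 8 with 1 library left out. Of all genes, 597 passed with CON-BDEV, 112 with no filter, 364 with the replicate block, 275 with a block for the number in the library name, and 84 (without Vehicle replicate 2) to 1067 (without CON-BDEV replicate 1) with 1 left out. With SE-BDEV 1253 passed, 726 with no filter and 501 to 1311 with 1 left out, and between the preparations 0, or 0 to 1 with 1 left out. Quantile normalization moved the share of CON-BDEV calls that were higher from 67.2% to 54.7%. The cause was not tested. Same-numbered libraries were not shown to pair: the correlation of their deviations from the group means was -0.264 to 0.194 over 9 pairs. Differently numbered libraries gave -0.273 to 0.387. With 3 libraries in a group, these values cannot exclude pairing. Nothing in the labels says that numbers mark a shared culture or day.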
